A study of Mus musculus with 2 samples.

Results

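Capillary-like lymphatic endothelial cells of the mouse neck were described in 2 droplet single-cell libraries, 22 cells from aged mice and 103 cells from adult mice, 125 of the 14300 cells used. The cells were chosen by their own measured values: a cell was counted when Prox1 was detected, Pdgfra was not detected and at least 3 of the 4 genes Ccl21a, Lyve1, Reln and Mmrn1 were detected. The aged library came from 6 pooled FVB/N mice of 93 weeks and the adult library from 6 pooled FVB/N mice of 12 weeks. All mice carried the Prox1-GFP reporter, a green fluorescent protein under the promoter of the lymphatic master regulator, and no other genotype or treatment is given. Cells of the lymphatics that lead to the submandibular nodes, in the superficial cervical system, were sorted by flow cytometry, and the labels do not describe the gate. The files carry no mark of the animal, so each age is 1 sample, and no difference between the ages was tested. All intervals given below are for counting error and leave out the spread between mice, cells and libraries.

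Initial lymphatics, or lymphatic capillaries, are blind-ended tubes of a single endothelial layer that take up interstitial fluid, macromolecules and immune cells. Their endothelium is known for button-like junctions, anchoring filaments, the hyaluronan receptor LYVE1 and the chemokine CCL21, which draws dendritic cells and T cells into the vessel. Lymph then passes into collecting vessels, which have valves and a muscle coat and carry little LYVE1 or CCL21. PROX1 is the transcription factor that sets and keeps lymphatic identity, and VEGFR3, encoded by Flt4, is its main growth factor receptor.

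The number of capillary genes detected per cell is the value that chose the cells and is given as a description. Among cells with Prox1 and without Pdgfra, the aged library had 311, 62, 9, 4 and 18 cells with 0, 1, 2, 3 and 4 of the capillary genes detected. The adult library had 447, 97, 19, 9 and 94 such cells. A further aged cell (1) had 3 or more of the genes but also Pdgfra, and no cell of either library had 3 or more without Prox1.

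**Figure D1:**
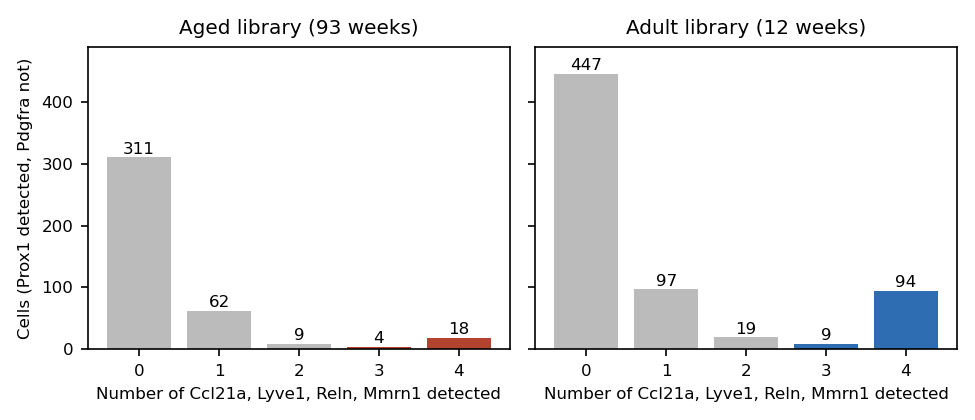
Number of cells (y axis) with Prox1 and without Pdgfra, by how many of Ccl21a, Lyve1, Reln and Mmrn1 were detected (x axis), in the aged library on the left and the adult library on the right. Coloured bars are the cells counted as capillary-like, 4 and 18 aged cells and 9 and 94 adult cells, and grey bars are the cells outside the rule.

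The cells just inside the rule differed from the core. The 4 aged cells with 3 of the genes held Ccl21a at 941 CPM (UMIs per 1000000 of the summed UMIs of those cells), Prox1 at 11812 CPM and no UMI of Piezo2. The 18 aged cells with all 4 genes held Ccl21a at 12277 CPM, Prox1 at 5104 CPM and Piezo2 at 981 CPM. In the adult library the 9 cells with 3 genes held Ccl21a at 9889 CPM and Piezo2 at 76.8 CPM, and the 94 cells with all 4 held 16922 CPM and 533 CPM. Cells just outside, with 2 of the genes, held Ccl21a at 51.5 CPM in 9 aged cells and 52.0 CPM in 19 adult cells. They held Prox1 at 20496 CPM in the aged library and 12428 CPM in the adult library. These values follow in part from the rule and are given as a description.

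The aged table lists many of the adult barcodes, and this bears on every comparison of the ages. Of the 7308 adult barcodes, 6977 (95.5%) were also in the aged table, where the copies held a median of 0.506 times the UMIs. Shared barcodes were counted once, as adult, which left 6992 aged cells. Of the 103 adult capillary-like cells, 90 had such a copy, and 84 of the copies passed the rule in the aged table. As deposited, the aged table therefore held 106 cells that pass the rule. The aged table names its genes by row number, and rows were named in the order of the adult table. Over the shared cells, gene levels of equal rows correlated at 0.999 and those of shifted rows at 0.0634 at most.

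The 22 aged cells held 95696 UMIs in all, with a median of 4295.5 per cell (1850 to 8740) and 2108 genes. The 103 adult cells held 562072 UMIs, with a median of 5425 per cell (1980 to 12102) and 2351 genes. One UMI was therefore worth 10.4 CPM in the aged cells and 1.78 CPM in the adult cells, and the aged side sets the precision. Capillary-like cells made up 0.315% of the aged library (22 of 6992, exact interval 0.197 to 0.476%) and 1.41% of the adult library (103 of 7308, 1.15 to 1.71%). The dissection, the sort and the treatment of shared barcodes can each set such a share, and their parts were not tested. By Xist and Y-linked genes, 8 aged cells were called female and 11 male, against 56 adult cells called female and 33 male. The median mitochondrial share of UMIs was 2.44% in aged cells and 2.61% in adult cells.

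The markers fit lymphatic endothelium. Flt4 was detected in 21 of 22 aged cells and 101 of 103 adult cells. Cldn5, an endothelial tight junction protein, was detected in 21 aged and 102 adult cells, and Pecam1, an endothelial adhesion molecule, in 18 aged and 91 adult cells. Pdpn, the podoplanin gene, was detected in 15 aged and 81 adult cells, and Cdh5, the VE-cadherin gene, in 18 aged and 74 adult cells. Ccbe1, which helps to process the lymphatic growth factor VEGF-C, had no UMI in the capillary-like cells of either library. The reporter eGFP was detected in every capillary-like cell, at 6615 CPM in the aged cells and 8753 CPM in the adult cells.

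Piezo2, a mechanically gated ion channel that the rule did not use, had a UMI in 18 of 22 aged cells and 81 of 103 adult cells. Among Pdgfra cells, which are mostly fibroblasts, it had a UMI in 1.48% of aged cells and 1.60% of adult cells, at median depths of 12336 UMIs in the aged and 13082 UMIs in the adult library. The Piezo2 shares in capillary-like cells were above these. The part of free RNA in the shares of Pdgfra cells was not tested. Ccl21a, which the rule used, had a UMI in 0.287% of aged and 1.16% of adult Pdgfra cells.

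Markers of other cells were at or near 0, apart from the mannose receptor gene Mrc1, the blood endothelial genes Rbp7 and Plvap, and fibroblast genes. Of 9 immune markers, 7 are in the tables, and they summed to 104 CPM in aged cells and 130 CPM in adult cells. Most of that was Mrc1, which lymphatic endothelium also expresses, and Ptprc, the pan-leukocyte gene, had no UMI in any capillary-like cell. The 6 smooth muscle and pericyte markers summed to 0 CPM in aged cells and 26.7 CPM in adult cells. The 3 epithelial, 3 Schwann and 2 adipocyte markers had no UMI. The 9 blood endothelial markers summed to 303 CPM in aged cells and 331 CPM in adult cells. Most of that was Rbp7 (240 CPM in aged cells and 238 CPM in adult cells). Plvap was at 41.8 CPM in aged cells (4 UMIs) and 83.6 CPM in adult cells (47 UMIs). Vwf had no UMI in aged cells and 1 in adult cells. The 6 fibroblast markers summed to 240 CPM in aged cells and 151 CPM in adult cells. The fibroblast gene Dcn had a UMI in 7 of 22 aged cells and 50 of 103 adult cells, at 115 CPM in aged and 123 CPM in adult cells, and in Pdgfra cells at 14856 CPM in the aged library and 15474 CPM in the adult library. The other fibroblast markers summed to 12 UMIs in aged cells (125 CPM) and 16 UMIs in adult cells (28.5 CPM), mostly of the collagen gene Col3a1 with 6 UMIs in aged cells and 11 UMIs in adult cells. The part of fibroblast RNA in the results below was not tested.

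Of the genes that chose the cells, Ccl21a stood furthest apart between the ages. It ranged from 1.75 over a median of 102 to 215 UMIs per 10000 in the 22 aged cells, and from 0 over a median of 158 to 504 in the 103 adult cells. Summed, this was 9760 CPM in aged cells and 16270 CPM in adult cells, a log2 ratio of -0.74 (95% counting interval -0.84 to -0.64). The cells of the ages overlapped widely, and among cells with all 4 genes the log2 ratio was -0.46. The mouse genome holds near-identical copies of this chemokine gene, whose reads cannot be told apart from those listed under Ccl21a.

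The other genes of the rule were close. Lyve1 was at 2466 CPM in aged cells and 2236 CPM in adult cells. Mmrn1, which encodes a secreted multimerin of lymphatic endothelium, was at 3229 CPM in aged and 3498 CPM in adult cells. Reln, whose product reelin is secreted by lymphatic endothelium, was at 1860 CPM in aged and 2009 CPM in adult cells. Prox1 was at 6594 CPM in aged cells and 7061 CPM in adult cells. Their log2 ratios lay between -0.12 and 0.14, and each counting interval held 0. The rule chose the cells of both ages by these genes, so their closeness follows in part from the rule and is a description. The log2 ratio of Prox1 was -0.38 among cells with all 4 capillary genes and 0.55 among cells with 2 or more.

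**Figure D2:**
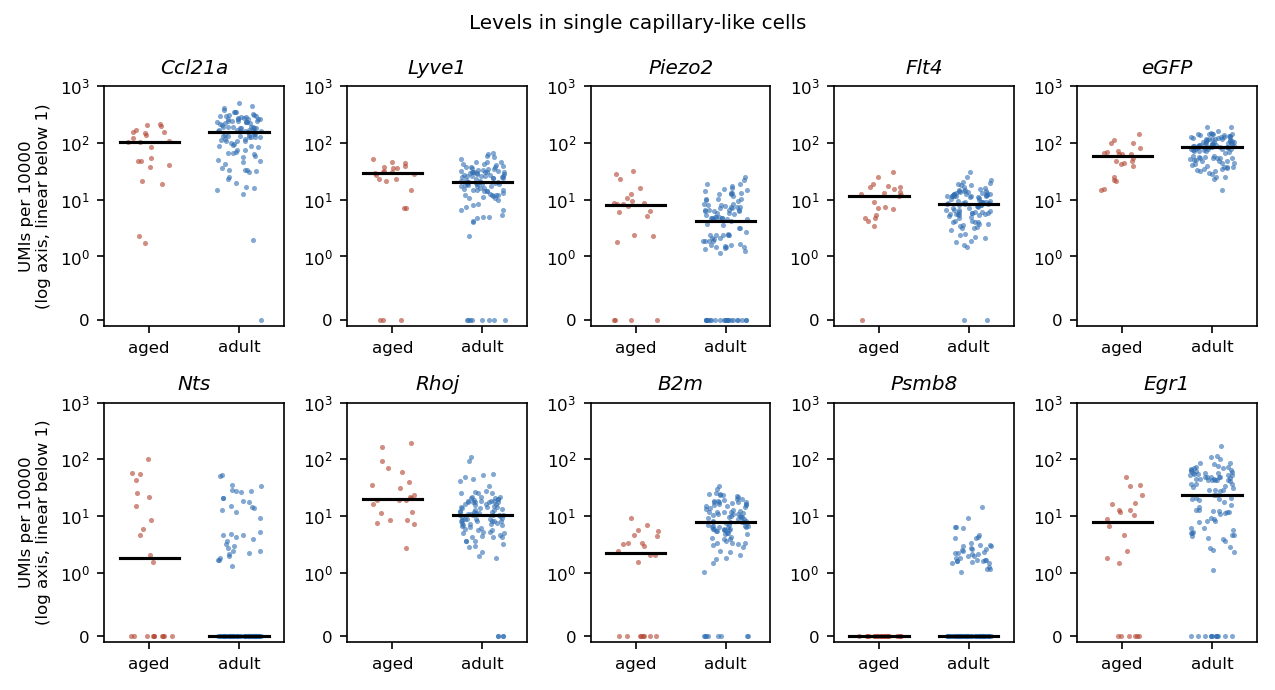
Level of 10 genes in single capillary-like cells, in UMIs per 10000 (y axis, log scale that is linear below 1), with the 22 aged cells on the left and the 103 adult cells on the right of each panel. Points are cells and black lines are medians, such as 102 in aged cells and 158 in adult cells for Ccl21a, and Psmb8 has no UMI in any aged cell.

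To show what sets these cells apart from other Prox1 cells, they were compared within each library with endothelial Prox1 cells that held fewer than 3 capillary genes and had Spp1 or Coch, which are genes of collecting lymphatics (17 aged and 63 adult cells). Those cells held little Flt4, at 66.3 CPM in the aged library and 93.2 CPM in the adult library, so they are named here by their genes only. Of 631 genes with enough UMIs in both libraries, 58 (9.19%) were at least 2-fold higher in capillary-like cells in both libraries and 58 (9.19%) at least 2-fold lower in both. The sign was the same in both libraries for 483 of the 631 (76.5%). The genes of the rule define the classes and were left out of the genes named.

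The higher genes named included a channel and growth factor receptors. Piezo2 was at 763 CPM in aged capillary-like cells (73 UMIs) against no UMI in the other class, and at 491 against 5.18 CPM in the adult library. Flt4 was at 1129 CPM in aged capillary-like cells against 66.3 CPM, and at 881 against 93.2 CPM in the adult library. Nrp2, the co-receptor of VEGFR3 for VEGF-C, was at 502 against 22.1 CPM in the aged library and at 797 against 62.1 CPM in the adult library.

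The matrix proteins Abi3bp and Tgfbi were also higher in capillary-like cells. Abi3bp was at 1244 against 11.1 CPM in the aged library and at 1149 against 18.1 CPM in the adult library. Tgfbi was at 564 against 11.1 CPM in the aged library and at 413 CPM against none in the adult library, at least 53.1-fold. Fgl2, which encodes a fibrinogen-like secreted protein, was at 1808 against 44.2 CPM in the aged library and at 1854 against 72.5 CPM in the adult library. Maf, a transcription factor gene, was at 711 against 55.3 CPM in aged cells and 834 against 88.0 CPM in adult cells. Adamtsl1, Ptn, Etl4, Thy1 and Hmcn1 completed the 12 higher genes named, with log2 ratios of 2.67 to 4.47 where both classes held UMIs.

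Genes lower in capillary-like cells included vascular ligands and receptors. Flt1, which encodes VEGFR1, had no UMI in aged capillary-like cells against 674 CPM, at least 21.5-fold lower, and was at 5.34 against 899 CPM in the adult library. Angpt2, a ligand of the receptor TIE2, was at 20.9 against 1138 CPM in the aged library and at 21.3 against 1090 CPM in the adult library. Ptgs2, the inducible prostaglandin synthase, was at 10.4 against 1647 CPM in the aged library and at 3.56 against 1261 CPM in the adult library. Clu, the clusterin gene, was at 10.4 against 973 CPM in aged cells and 10.7 against 1044 CPM in adult cells. Hbegf, an EGF receptor ligand, was at 10.4 against 1050 CPM in aged cells and 8.90 against 981 CPM in adult cells. Auts2, Ahsg, Nav2, Arid5b, Rida, Tmem158 and Pde4d completed the 12 lower genes.

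**Figure D3:**
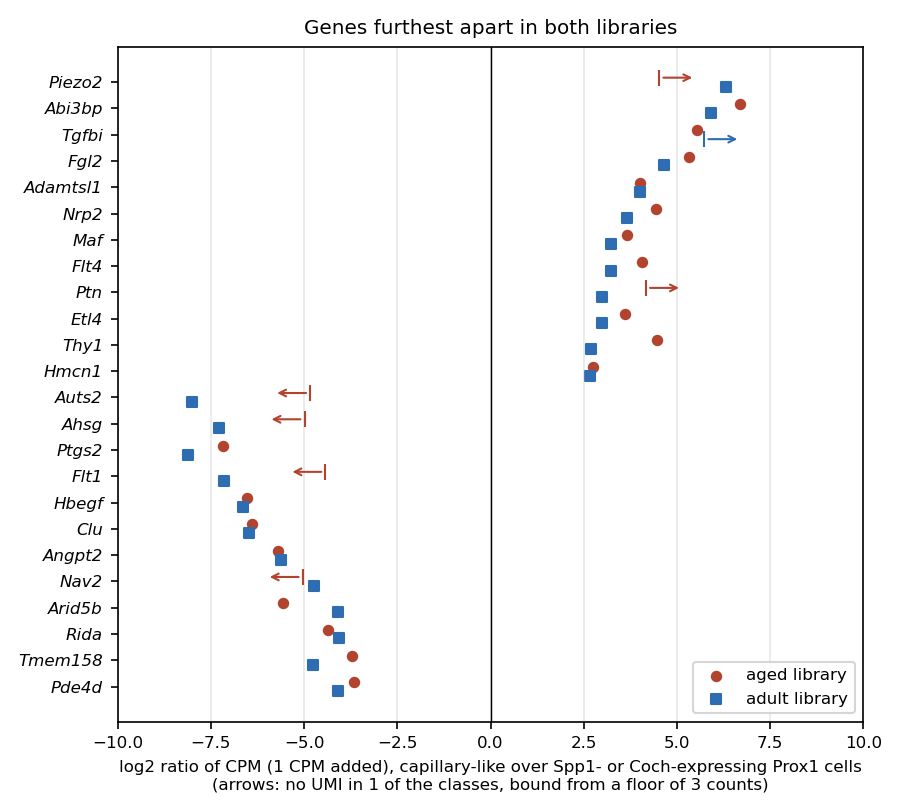
Log2 ratio of CPM (x axis) of capillary-like cells over Prox1 cells with Spp1 or Coch, for the 12 higher and 12 lower genes named by rank, with aged library circles above adult library squares. Arrows start at the bound where a class held no UMI, as for Piezo2 and Flt1 in the aged library. The 24 genes lie on the same side in both libraries because the ranking chose them so.

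Capillary-like cells of 1 library also varied among themselves. In the 86 adult cells with at least 3500 UMIs, each thinned to 3500, 1085 genes were counted, and the median ratio of variance to mean across cells was 1.34. The ratio was over 2 for 189 genes (17.4%). It was highest for Iigp1, an interferon-induced GTPase, at 33.2, with 58 of its 110 thinned UMIs in 1 cell. Ccl21a followed at 23.2 although every thinned cell held it. Nts, the gene of the secreted peptide neurotensin, was detected in 27 of the 86 cells at a ratio of 9.67. Ratios were also high for immediate early genes, with Egr1 at 10.3 and Fos at 9.93, and for the flow-responsive transcription factor gene Klf2 at 10.4. Flt4, at 1.97, and Nrp2, at 1.95, had lower ratios. The ratio can rise with the mean, which was 58.6 thinned UMIs per cell for Ccl21a, 3.22 for Flt4 and 2.87 for Nrp2. It therefore does not rank genes of unlike level by how uneven they are. These genes were picked after their values were seen.

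Between the ages, 2537 genes were measured in capillary-like cells, which means 50 or more UMIs over both libraries and a UMI in 10% or more of the cells of at least 1. Of these, 73 (2.88%) were at least 2-fold higher in aged cells, and 136 (5.36%) at least 2-fold lower. The counting interval excluded 0 for all 73 higher genes and for 86 of the 136 lower genes. The aged cells held 95696 UMIs and the adult cells 562072. At 50 UMIs, a 2-fold higher gene therefore excludes 0 more readily than a 2-fold lower one. These counts follow in part from the filter and do not compare the support for higher and lower genes. The median log2 ratio over all genes was 0.04, and the median gene had 15 UMIs in the aged cells. With shared barcodes left out of both libraries only 13 adult cells with 34491 UMIs remained, in which 400 genes were measured, 24 of them higher and 15 lower. Of the 73 higher genes 43 remained past 2-fold there, and of the 136 lower genes 88. With all cells as deposited, where 84 of the 106 aged cells are the copies, 3 genes were higher and 2 lower.

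Secreted factors and their regulators were among the genes higher in aged cells. Nts was at 1985 CPM in aged cells, with a UMI in 12 of 22, and at 509 CPM in adult cells, with a UMI in 37 of 103 (log2 ratio 1.96, 1.69 to 2.23). It belongs to the lists of both capillary and collecting genes fixed for this work. In Prox1 cells with Spp1 or Coch it was at 4565 CPM in the aged library and 1839 CPM in the adult library. Among cells with all 4 capillary genes its log2 ratio was 0.95. Sema3a, the repulsive guidance ligand of neuropilin and plexin receptors, was at 700 CPM in aged cells and 270 CPM in adult cells (1.37, 0.94 to 1.80). Thinned to 3500 UMIs, 13 of 15 aged cells and 42 of 86 adult cells held Sema3a.

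Ackr3, a scavenging receptor for chemokines and adrenomedullin, was at 397 CPM in aged cells and 139 CPM in adult cells (1.51, 0.92 to 2.09). Its log2 ratio was 0.79 among cells with all 4 capillary genes and 0.69 among cells with 2 or more. With shared barcodes left out of both libraries it was 2.18. Ptn, the growth factor pleiotrophin, was at 596 CPM in aged and 235 CPM in adult cells (1.34, 0.87 to 1.80). Its log2 ratio was 2.64 among cells called female and 0.64 among cells called male. Leaving out shared barcodes made it 0.19.

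Rhoj, a small GTPase of endothelium, was also among the higher genes named. It ranged from 2.79 over a median of 20.1 to 192 UMIs per 10000 in aged cells, and from 0 over a median of 10.7 to 108 in adult cells. Its summed level was 4138 CPM in aged cells and 1619 CPM in adult cells (1.35, 1.18 to 1.53), with 112 of the 396 aged UMIs in 1 cell. Rcan1, an inhibitor of calcineurin, was at 376 CPM in aged and 126 CPM in adult cells (1.57, 0.95 to 2.17). Plpp1, a lipid phosphate phosphatase, was at 606 CPM in aged and 210 CPM in adult cells (1.53, 1.05 to 1.99). Daam1, a formin of Wnt signalling, was at 408 CPM in aged and 146 CPM in adult cells, and Ascc3, a helicase subunit, at 251 CPM in aged and 80.1 CPM in adult cells. Fbxl7, an F-box protein gene, was at 596 CPM in aged cells and 165 CPM in adult cells, but 37 of its 57 aged UMIs came from 1 cell. Among cells with all 4 capillary genes its log2 ratio was -0.08.

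Adamts9, a secreted metalloprotease gene, and Mgp, the matrix Gla protein gene, were higher in aged cells but are also over 5 times higher in some other class of these libraries. Adamts9 was at 324 CPM in aged cells, with a UMI in 7 of 22, and at 51.6 CPM in adult cells, with a UMI in 12 of 103 (2.63, 1.87 to 3.43). In blood endothelial cells it was at 1899 CPM in the aged library and 1025 CPM in the adult library. Mgp was at 313 CPM in aged cells and 105 CPM in adult cells (1.57, 0.89 to 2.24), and in the remaining Prox1 endothelial cells at 7868 CPM in the aged library and 6154 CPM in the adult library. Its log2 ratio was 0.21 among cells called female (-1.75 to 1.72), 2.96 among cells called male and 0.71 among cells with all 4 capillary genes. The part of free RNA in these values was not tested.

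**Figure D4:**
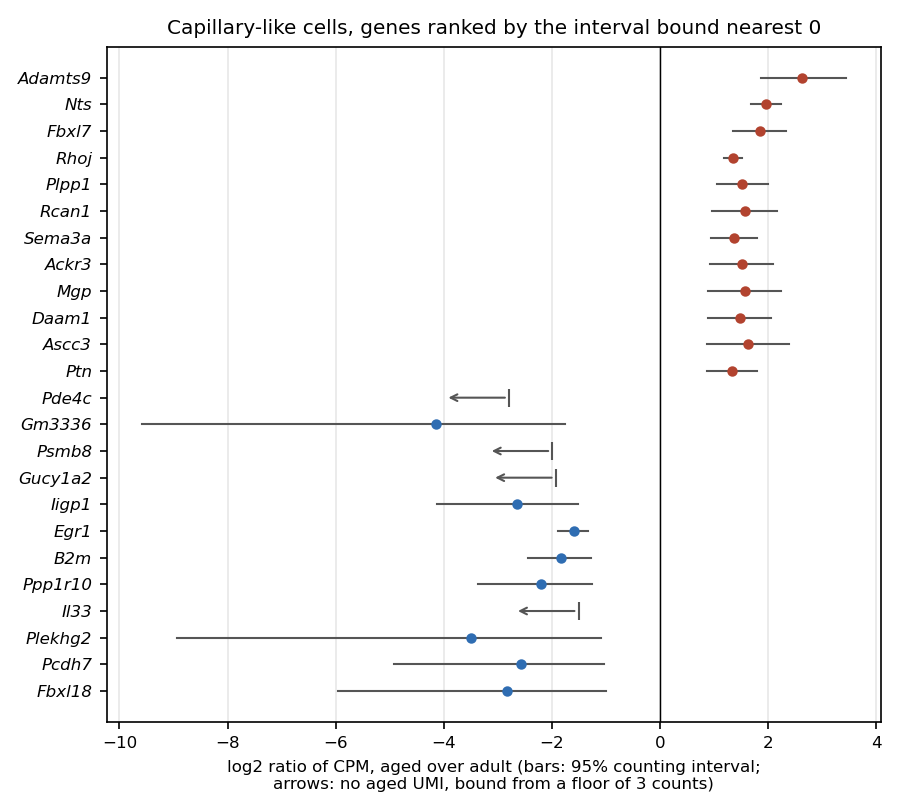
Log2 ratio of CPM of aged over adult capillary-like cells (x axis) for the 12 higher and 12 lower genes named by the interval bound nearest 0, with bars for the 95% counting interval. Arrows start at the bound of genes with no UMI in the 22 aged cells (Pde4c, Psmb8, Gucy1a2 and Il33), and the highest gene is Adamts9 at 2.63.

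Several of the lower genes had no UMI in the aged cells. Pde4c, a cyclic AMP phosphodiesterase, had 0 UMIs in aged cells and 122 in adult cells, in 31 of 103 cells, so that it was at least 6.92-fold lower against a floor of 3 counts. Gm3336, a predicted gene next to Pde4c on the same strand in the GRCm38.p6 annotation, had 1 UMI in aged cells and 113 in adult cells. Psmb8, a subunit of the immunoproteasome, had 0 UMIs in aged and 70 in adult cells (at least 3.97-fold lower). Gucy1a2, a subunit of the nitric oxide receptor guanylate cyclase, had 0 UMIs in aged and 67 in adult cells (at least 3.80-fold lower). Il33, the alarmin cytokine gene, had 0 UMIs in aged and 50 in adult cells (at least 2.84-fold lower). Among cells with 2 or more capillary genes the log2 ratio was only -1.55 for Pde4c and -1.56 for Psmb8. Those of Gucy1a2 and Il33 were -6.62 and -6.29 there, with 1 CPM added. For each gene with no UMI, by the floor of 3 counts, 0 of 22 cells allows a share of up to 13.6% of cells with a UMI. Gucy1a1 and Gucy1b1, the other subunits of the same enzyme, were near equal, Gucy1a1 at 261 CPM in aged cells and 272 CPM in adult cells and Gucy1b1 at 261 CPM in aged cells and 258 CPM in adult cells.

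The copies of adult cells in the aged table kept the adult levels of these genes. This follows from their sharing barcodes and gene levels with the adult cells, and it says nothing on the difference between the ages. Pde4c was at 214 CPM in the 90 copies, with or without passing the rule, and at 218 CPM in the same cells of the adult table. Psmb8 was at 146 CPM in the copies and 129 CPM in the same cells. B2m was at 956 CPM in the copies and 1020 CPM in the same cells. Egr1 was at 3582 CPM in the copies and 3673 CPM in the same cells.

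Class I presentation genes had the lowest median of the lists with 5 or more measured members. MHC class I presents peptides cut by proteasomes, the immunoproteasome among them, on nucleated cells. The light chain shared by all class I molecules is encoded by B2m. B2m ranged from 0 over a median of 2.25 to 9.13 UMIs per 10000 in aged cells, and from 0 over a median of 7.84 to 33.3 in adult cells. Its summed level was 282 CPM in aged cells and 1002 CPM in adult cells (log2 ratio -1.82, -2.44 to -1.27). It had a UMI in 14 of 22 aged cells and 95 of 103 adult cells, and after thinning to 3500 UMIs in 11 of 15 aged and 75 of 86 adult cells. The ranges overlapped, with the aged cells in the lower part of the adult range.

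Of the 10 measured class I genes, 6 were at least 1.5-fold lower in aged cells and 2 at least 1.5-fold higher, where 13.6% and 13.2% of all measured genes were, and the list median was -0.84 against 0.04 over all genes. The heavy chain gene H2-D1 was at 1191 CPM in aged cells and 2288 CPM in adult cells (-0.94, -1.23 to -0.66). The heavy chain gene H2-K1 was at 313 CPM in aged and 708 CPM in adult cells (-1.17, -1.76 to -0.64). Class I heavy chain genes are a family of near-identical copies, so reads may be shared among them. The non-classical H2-T23 was at 136 CPM in aged cells and 228 CPM in adult cells, with an interval that held 0. Psmb9, another immunoproteasome subunit, had 3 UMIs in aged cells and 63 in adult cells (-1.81, -4.15 to -0.23). The 2 higher members were the endoplasmic reticulum chaperones Pdia3, at 376 CPM in aged and 221 CPM in adult cells, and Canx, at 293 CPM in aged and 189 CPM in adult cells.

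The lower class I levels of the aged library were not confined to capillary-like cells, and 2 of them were not seen with shared barcodes left out. B2m had log2 ratios of -1.24 in Prox1 cells with Spp1 or Coch, -1.59 in the remaining Prox1 endothelial cells, -1.02 in blood endothelial cells and -1.12 in Pdgfra cells. With shared barcodes left out of both libraries, B2m kept -1.36 and H2-D1 -0.83, while H2-K1 was at 0.26 and Psmb9 at 0.11. The list median was then -0.30. Only 13 adult cells with 34491 UMIs remained in that setting, so its values rest on few UMIs. With the copies in place of the adult values H2-K1 was at -1.23 and Psmb9 at -1.86, but the copies repeat adult cells and are no independent check. The cause of the change was not tested. Among cells called female B2m was at -2.49 (7 UMIs in aged and 343 in adult cells), and among cells called male at -1.31 (19 UMIs in aged and 171 in adult cells).

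Interferon response genes differed in both directions. Iigp1 had 6 UMIs in aged cells and 222 in adult cells (-2.64, -4.12 to -1.51), but 108 of the adult UMIs lay in 1 cell. Bst2, the antiviral tetherin gene, was at 83.6 CPM in aged cells and 295 CPM in adult cells (-1.81, -3.06 to -0.81). Gbp7, a guanylate-binding GTPase gene, had 4 UMIs in aged and 73 in adult cells (-1.61, -3.55 to -0.22). Other members were near equal, with Ifitm3 at 2236 CPM in aged and 2227 CPM in adult cells and Isg15 at 157 CPM in aged and 135 CPM in adult cells. Of 8 measured members 4 were at least 1.5-fold lower and 1 at least 1.5-fold higher, where 13.6% and 13.2% of all measured genes were. The list median was -0.30. With shared barcodes left out of both libraries, which left only 13 adult cells, Iigp1 was at 0.11 and the median at 0.52.

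Interferon acts on such promoters through a response element with the core GAAANNGAAA, bound by interferon regulatory factors. The 150 bases before the start of 3 lower genes that hold these letters are shown here, from RefSeq on GRCm38.p6, with the matches on either strand (TTTCNNTTTC when reversed) in capitals. The B2m window is chr2:122147537-122147686 on the plus strand, the Bst2 window chr8:71537473-71537622 on the minus strand and the Gbp7 window chr3:142530186-142530335 on the plus strand, each written 5′ to 3′ along its gene.
B2m: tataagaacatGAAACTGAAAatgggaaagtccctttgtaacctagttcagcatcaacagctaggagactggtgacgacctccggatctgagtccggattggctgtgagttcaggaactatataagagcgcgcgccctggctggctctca
Bst2: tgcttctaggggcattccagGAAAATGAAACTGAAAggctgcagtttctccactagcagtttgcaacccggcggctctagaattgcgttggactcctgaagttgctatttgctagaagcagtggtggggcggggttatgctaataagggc
Gbp7: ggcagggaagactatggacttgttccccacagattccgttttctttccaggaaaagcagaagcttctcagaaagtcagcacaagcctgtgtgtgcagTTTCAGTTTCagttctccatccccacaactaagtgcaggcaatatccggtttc

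The match starts 139 bases before the start site in B2m, and Bst2 holds 2 overlapping matches, the farther one 130 bases before it. The motif was found in 521 of 32851 such windows (1.59%), or 499 of 27025 genes (1.85%). Of the 10 measured class I genes 2 held it, B2m and H2-T23. Of the 8 measured interferon response genes 5 are in the promoter table, and Gbp7, Isg15 and Bst2 held it. Isg15, which holds the motif, was not lower in aged cells, and a match of letters does not show that a factor binds there.

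Class II genes were too rare to be measured in these cells. The class II list summed to 2 UMIs in aged cells and 103 UMIs in adult cells. Cd74, the invariant chain gene, had a UMI in 0 of 22 aged cells and 5 of 103 adult cells, with 10 of its 15 UMIs in 1 adult cell. H2-Ab1, a class II beta chain gene, had a UMI in 1 aged cell and 10 adult cells.

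Genes of leukocyte entry also differed in both directions. Beside Ccl21a, Il33 and Ackr3, described above, Icam1, an adhesion molecule for leukocytes, was at 230 CPM in aged cells and 505 CPM in adult cells (-1.13, -1.83 to -0.51), and 14 of its 22 aged UMIs lay in 1 cell. Il7, a cytokine that lymphatic endothelium makes for T cells, was at 219 CPM in aged and 272 CPM in adult cells. S1pr1, the sphingosine-1-phosphate receptor gene, was at 293 CPM in aged and 205 CPM in adult cells, and Spns2, the exporter of that lipid, at 136 CPM in aged and 88.9 CPM in adult cells, both with intervals that held 0. Without Ccl21a, which the rule used, 2 of the 6 measured genes were at least 1.5-fold lower and 2 at least 1.5-fold higher, where 13.6% and 13.2% of all measured genes were.

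The measured scavenger receptor genes lay below their adult levels in aged cells, apart from Lyve1. Colec12, a scavenger receptor, was at 52.2 CPM in aged cells and 171 CPM in adult cells (-1.69, -3.36 to -0.44), with a UMI in 4 of 22 aged cells and 49 of 103 adult cells. It is not particular to capillary-like cells: in Prox1 cells with Spp1 or Coch it had a UMI in 16 of 17 aged and 51 of 63 adult cells, and in Pdgfra cells in 74.3% of aged and 78.5% of adult cells. Stab1, a multiligand clearance receptor, was at 240 CPM in aged and 404 CPM in adult cells (-0.75, -1.44 to -0.13), and Mrc1, the mannose receptor, at 73.1 CPM in aged and 117 CPM in adult cells with an interval that held 0. Of the 5 measured genes of the list 3 were at least 1.5-fold lower and 1, the hyaluronidase gene Hyal2, at least 1.5-fold higher. Over all measured genes 13.6% were lower and 13.2% higher by 1.5-fold. The list median was -0.68 overall and 0.22 among cells called male.

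Immediate early genes, which respond within minutes to stimuli that include tissue dissociation, were lower or near equal in aged cells, apart from Jund and Klf6. Egr1 ranged from 0 over a median of 7.81 to 48.1 UMIs per 10000 in aged cells, and from 0 over a median of 24.0 to 172 in adult cells. Summed, it was at 1181 CPM in aged cells and 3573 CPM in adult cells (-1.60, -1.88 to -1.32). Fosb was at 1003 CPM in aged and 2187 CPM in adult cells (-1.12), Fos at 2654 CPM in aged and 4316 CPM in adult cells (-0.70), and Btg2 at 282 CPM in aged and 639 CPM in adult cells (-1.18). Nr4a1 was at 83.6 CPM in aged and 238 CPM in adult cells (-1.50, -2.75 to -0.49). Klf6 was the 1 member at least 1.5-fold higher, at 397 CPM in aged cells and 219 CPM in adult cells. Of the 16 measured genes 5 were at least 1.5-fold lower and 1 higher, where 13.6% and 13.2% of all measured genes were. The list median was -0.43. With shared barcodes left out of both libraries the median was 0.21, Egr1 was at -0.78, Fos at 0.23 and Nr4a1 at -0.06. Among cells called female Nr4a1 was at -0.09. Egr1 was also lower in the aged library in Prox1 cells with Spp1 or Coch (-2.92), in the remaining Prox1 endothelial cells (-1.61), in blood endothelial cells (-0.56) and in Pdgfra cells (-0.49).

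Receptors of lymphatic growth differed in both directions, in shares near those of all genes. Of the 8 measured genes of VEGF and angiopoietin signalling 1 (12.5%) was at least 1.5-fold higher and 1 (12.5%) lower. Over all measured genes 13.2% were higher and 13.6% lower. The list median was 0.24, and -0.14 with shared barcodes left out of both libraries. Flt4 was at 1129 CPM in aged cells and 881 CPM in adult cells (0.36, 0.04 to 0.66). Kdr, the VEGFR2 gene, was at 784 CPM in aged and 603 CPM in adult cells, with an interval that reached 0. Nrp2 was at 502 CPM in aged cells and 797 CPM in adult cells (-0.67, -1.13 to -0.24). The angiopoietin receptor genes Tek, at 146 CPM in aged and 169 CPM in adult cells, and Tie1, at 136 CPM in aged and 155 CPM in adult cells, had intervals that held 0. Calcrl and Ramp2, which together form the adrenomedullin receptor, were higher in aged cells. Calcrl was at 324 CPM in aged cells and 190 CPM in adult cells (0.76, 0.14 to 1.36), and Ramp2 at 627 CPM in aged cells and 463 CPM in adult cells (0.44, 0.01 to 0.85).

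Flow and stretch sensing genes had 3 of 10 measured members at least 1.5-fold higher in aged cells and none lower, where 13.2% and 13.6% of all measured genes were, with a median of 0.31. The median was -0.02 among cells called female and -0.20 without the top cell of each gene. Piezo2 was at 763 CPM in aged cells and 491 CPM in adult cells (0.63, 0.24 to 1.01). Thinned to 3500 UMIs, 11 of 15 aged cells and 46 of 86 adult cells held Piezo2. Wwtr1, the gene of the Hippo effector TAZ, was at 836 CPM in aged and 434 CPM in adult cells (0.94, 0.56 to 1.32). Ccn1, a target of YAP and TAZ, was at 564 CPM in aged and 297 CPM in adult cells (0.92), but 34 of its 54 aged UMIs lay in 1 cell. Piezo1, the other channel of the family, was at 199 CPM in aged and 142 CPM in adult cells, with an interval that held 0. Klf2 was at 1212 CPM in aged and 1135 CPM in adult cells and Klf4, another flow-responsive transcription factor gene, at 1306 CPM in aged and 1756 CPM in adult cells (-0.43, -0.71 to -0.16).

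Vessel wall genes differed little apart from the basement membrane. Lymphatic capillaries have a thin, broken basement membrane. Hspg2, the perlecan gene, was at 178 CPM in aged cells and 71.2 CPM in adult cells (1.31, 0.41 to 2.17), on 17 UMIs in aged and 40 in adult cells. Col18a1 was at 313 CPM in aged and 199 CPM in adult cells (0.65, 0.02 to 1.25), and Col4a2 at 188 CPM in aged and 107 CPM in adult cells with an interval that held 0. Of the 8 measured genes 3 were at least 1.5-fold higher and none lower, where 13.2% and 13.6% of all measured genes were, with a median of 0.43. With shared barcodes left out of both libraries the median was -0.15 and Hspg2 was at -0.55, and among cells with 2 or more capillary genes the median was 0.02. Of the 12 measured junction genes none passed 1.5-fold in either direction. Cdh5 was at 334 CPM in aged and 304 CPM in adult cells, Pecam1 at 470 CPM in aged and 544 CPM in adult cells, and Cldn5 at 2403 CPM in aged and 1998 CPM in adult cells (0.27, 0.06 to 0.47).

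Guidance genes differed in both directions, in shares near those of all genes. Sema3f, like Sema3a a secreted semaphorin, was at 313 CPM in aged cells and 123 CPM in adult cells (1.35, 0.68 to 1.99). Efna1, an ephrin ligand, had 2 UMIs in aged cells and 78 in adult cells (-2.67, -5.80 to -0.83). Sema3d, at 543 CPM in aged and 402 CPM in adult cells, and the netrin gene Ntn1, at 752 CPM in aged and 696 CPM in adult cells, had intervals that held 0. Of the 13 measured genes 2 (15.4%) were at least 1.5-fold higher and 2 (15.4%) lower, where 13.2% and 13.6% of all measured genes were.

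The lists of fate transcription factors, respiratory chain, and caveolae and vesicles had medians near the 0.04 of all measured genes. Of all measured genes 13.2% were at least 1.5-fold higher and 13.6% lower. Of the 17 measured capillary lymphatic genes outside the rule 3 (17.6%) were higher and 4 (23.5%) lower, with a median of 0.11. Of the 7 measured collecting lymphatic and valve genes 1 was higher and 1 lower, with a median of 0.45. Their median was -0.01 among cells called female. Of the 15 measured genes of transcription factors that set endothelial fate 1 was at least 1.5-fold higher and 1 lower, with a median of -0.10. The 38 measured respiratory chain genes had a median of -0.09, with 2 lower and none higher by 1.5-fold. Of the 15 genes of caveolae and vesicles 4 (26.7%) were higher and 1 (6.67%) lower, with a median of 0.07. Among the higher ones was the water channel gene Aqp1, at 282 CPM in aged cells and 141 CPM in adult cells (interval of the log2 ratio 0.32 to 1.65). The inhibitor gene Nfkbia was at 857 CPM in aged and 416 CPM in adult cells (1.04, 0.66 to 1.41). Its log2 ratio was 1.65 among cells called male and 0.07 among cells called female. Nos3, the endothelial nitric oxide synthase gene, had 7 UMIs in aged cells and 13 in adult cells, below the number needed to be measured.

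**Figure D5:**
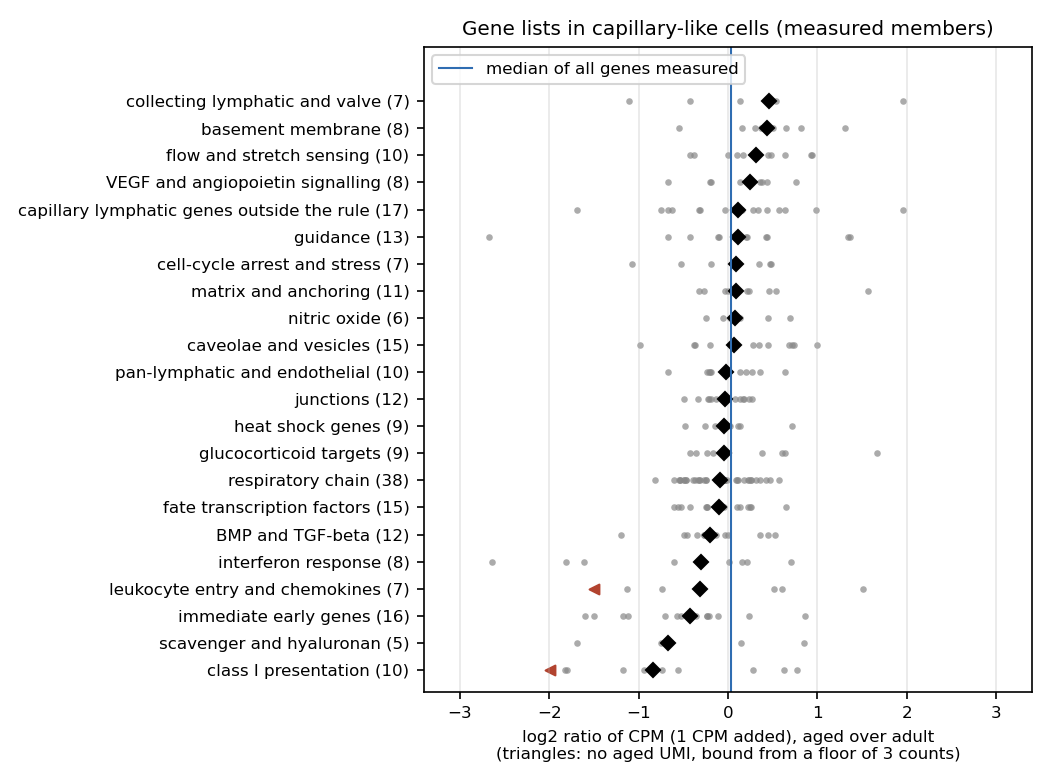
Log2 ratio of CPM of aged over adult capillary-like cells (x axis) for the measured members of each list with 5 or more (grey points, number in brackets), with black diamonds for list medians and a blue line for the median of all genes measured. Triangles are genes with no UMI in aged cells, drawn at their bound, and medians run from -0.84 for class I presentation to 0.45 for genes of collecting lymphatics and valves.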

How the data were processed

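In the deposited tables each value is a natural log, taken after a cell's UMIs are scaled to 10000 and 1 is added, as found from the values; Seurat 5.0.3 is named for this in the submitters' processing notes. The notes name GRCm39 and mm10 with no role; the aligner and cell filters are not named there. Whole UMIs were recovered for 100% of values within 0.01. Doublets were not called; leaving out cells with Ptprc, Acta2 or at least 3 fibroblast markers was an alternative.

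UMIs were summed per library and class and divided by the class total (CPM). Log2 ratios add 1 CPM to each side, which makes those of low genes smaller; the 95% intervals are exact conditional binomial ones without it. Shares carry exact Clopper-Pearson intervals. Genes at 0 are given as bounds from a floor of 3 counts per library. List members were counted from 1.5-fold. Thinned cells had 3500 UMIs, which left out 7 aged and 17 adult cells. With 1 library per age no test across samples is possible, and ratios were tested on simulated counts only. Genes named were, among genes with a UMI in 25% or more of the cells of the higher library, the 12 highest and the 12 lowest by the interval bound nearest 0, the 12 and 12 furthest apart in both libraries between classes, and list members. Members of the class and lists were chosen with earlier results of these data known. The 36 lists hold 542 genes, of which 9 are not in the tables. The values of 1 list member are not reported here. Blood endothelial cells had both Flt1 and Pecam1 and no Prox1 or Pdgfra. Promoters came from RefSeq on GRCm38.p6 by symbol. Python 3.11.15, numpy 2.4.6, scipy 1.17.1, pandas 2.3.3 and matplotlib 3.10.9 were used.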

Additional observations from a re-analysis of the deposited data

Results flagged for a closer look

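Adamts9 differed between the classes in opposite directions. In capillary-like cells its log2 ratio of aged over adult was 2.63, on 31 UMIs in aged cells and 29 in adult cells. In Prox1 cells with Spp1 or Coch it was -3.02, on 4 UMIs in aged cells and 141 in adult cells. The difference was not tested, since each age is 1 library.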

How the results depend on the processing

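No paired analysis was possible because each age is 1 library, and no library could be left out. The 73 higher and 136 lower genes of the aged cells became 1947 and 5176 with no filter on low counts, 35 and 38 from 100 UMIs, 43 and 49 in male cells, 36 and 313 without the top cell of each gene, 24 and 15 with shared barcodes left out of both libraries, and 3 and 2 with all cells as deposited. Lower genes numbered 70 of 1326 measured in thinned cells, and 47 of 1372 with the copies in place of the adult values, an alternative chosen after seeing the data. Leaving out the top cell moved the median of all genes by -0.23. Under the other settings both counts lay within 1.5 times. Of the 73 higher and 136 lower genes themselves, 50 and 107 remained past 2-fold in thinned cells, 59 and 114 with the copies, 41 and 117 with all 4 capillary genes, 21 and 64 with 2 or more, 43 and 88 with shared barcodes left out of both and 2 and 0 with all cells as deposited. Against Prox1 cells with Spp1 or Coch, the 58 higher and 58 lower genes became 11 and 18 in female cells, 17 and 22 in male cells, 15 and 22 from 100 UMIs, 215 and 171 with all cells as deposited, and 256 and 500 against the remaining Prox1 endothelial cells, also chosen after seeing the data. Fewer cells or genes tested shrink such counts by construction. The share of capillary-like cells was 2.04% of aged and 5.16% of adult cells with Pecam1 or Cdh5, and 0.759% of the aged table as deposited.

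Of 750 log2 ratios of 50 genes over these settings, 608 stayed within the counting interval of the gene's ratio before any change of setting. A further 135 moved outside that interval. The other 7 reversed, where only genes at least 2-fold apart could count as reversed. Those were Fbxl7 at -0.08 with all 4 capillary genes, Iigp1 at 0.11, H2-K1 at 0.26, Psmb9 at 0.11 and Hspg2 at -0.55 with shared barcodes left out of both, Fkbp5 at -0.06 in thinned cells and Id1 at 0.0 with all cells as deposited. Of genes under 2-fold, Fos turned to 0.23, Flt4 to -0.18 and eGFP to 0.05 with shared barcodes left out of both, and Prox1 to 0.55 with 2 or more capillary genes, among others. The scavenger list median turned to 0.22 in male cells, and with shared barcodes left out of both the medians of interferon response turned to 0.52, immediate early genes to 0.21 and basement membrane to -0.15. That of flow and stretch sensing turned to -0.20 without the top cell of each gene, and lists with medians nearer 0 changed sign too. The causes were not tested. The 95696 UMIs of the aged cells limit what can be seen: a gene with no UMI there lies at or under 31.3 CPM by the floor of 3 counts.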
